A study of Mus musculus with 18 samples.

Results

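The potassium channel genes of cultured mouse neural stem cells (NSCs) and of the astrocytes derived from them are described here. Members were taken by symbol: every protein-coding gene whose symbol starts with Kcn, apart from Kcnj10, gave 85 of the 27997 genes listed. By role, 40 encode voltage-gated pore subunits, 12 inward rectifiers, 10 two-pore subunits, 8 calcium- and sodium-activated pore subunits and 15 auxiliary subunits or regulators. Bulk RNA-seq was performed on 18 libraries from 3 adherent culture lines. The first line, here the tdTomato line, was grown from spinal cord cells whose lineage had been traced with DNGR-1-driven Cre and tdTomato (genotype DNGR-1 +/- Tom+/-). The second, here the EYFP line, was traced in the same way with EYFP (DNGR-1 +/- EYFP+/-). The third, here the hippocampal line (DNGR-1+/+), came from the hippocampus of mice that carried a Glast-driven Cre, floxed Huwe1 alleles and a conditional EYFP reporter, and its Huwe1 level lay at 13.28 on the log2 scale in NSCs against 13.32 in both traced lines, a gene-level value that need not show the loss of an exon. Each line was sampled as NSCs, kept in medium with EGF and bFGF at 20 ng/ml each and collected at day 4, and as astrocytes, kept with BMP4 at 20 ng/ml and collected at day 6, with 3 libraries per line and fate. The 3 libraries of a group came from passages 10, 11 and 12 of 1 line. P-values within a line and for differences between changes thus measure the spread between passages. Those over all lines also take in differences between the changes of the lines. In tests of levels by origin the gap between both traced lines counts as spread too. The origin of a line cannot be told apart from other features of that culture.

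Potassium channels let potassium ions leave or enter a cell along their gradient and so set its resting potential and shape its electrical signals. Voltage-gated, inward rectifying and calcium-activated pores are assembled from 4 subunits, two-pore channels are dimers that carry a leak current, and auxiliary subunits change the surface level or the gating of the pores. Astrocytes are known for a large resting potassium conductance, carried in vivo mainly by inward rectifiers and two-pore channels, with which they clear potassium from the space around neurons.

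As members of the family moved in both directions between fates, the promoters of the 2 largest rises and the 2 largest falls among members with a single listed start were read from RefSeq (GRCm38.p6). Each covers 250 bases before and 50 after the start and is written 5′ to 3′ on the strand of the gene. Capitals mark GGGCGG, the core of the GC box bound by Sp factors, and GGCGCC, an element that SMAD proteins of the BMP pathway can bind, on either strand. Kcnj8 lies at chr6:142571565-142571864 on the minus strand, Kcna6 at chr6:126740625-126740924 on the minus strand, Kcnk5 at chr14:20181733-20182032 on the minus strand and Kcnc1 at chr7:46396218-46396517 on the plus strand.
Kcnj8: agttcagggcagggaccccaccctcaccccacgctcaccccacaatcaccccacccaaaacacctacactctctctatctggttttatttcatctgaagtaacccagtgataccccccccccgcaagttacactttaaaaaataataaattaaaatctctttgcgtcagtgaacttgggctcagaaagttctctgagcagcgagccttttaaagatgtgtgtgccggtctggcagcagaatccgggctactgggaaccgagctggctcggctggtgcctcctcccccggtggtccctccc
Kcna6: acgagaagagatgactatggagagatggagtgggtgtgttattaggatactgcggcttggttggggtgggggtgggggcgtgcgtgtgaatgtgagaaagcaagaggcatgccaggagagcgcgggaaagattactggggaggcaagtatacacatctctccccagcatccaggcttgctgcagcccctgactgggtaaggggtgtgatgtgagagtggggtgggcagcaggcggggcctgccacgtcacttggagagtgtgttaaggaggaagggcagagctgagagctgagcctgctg
Kcnk5: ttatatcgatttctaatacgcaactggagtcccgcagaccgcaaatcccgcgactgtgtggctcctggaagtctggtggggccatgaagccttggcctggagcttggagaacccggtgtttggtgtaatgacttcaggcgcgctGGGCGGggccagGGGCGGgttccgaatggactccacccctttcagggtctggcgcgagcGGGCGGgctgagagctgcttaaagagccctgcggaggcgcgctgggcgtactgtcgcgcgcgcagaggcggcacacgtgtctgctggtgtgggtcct
Kcnc1: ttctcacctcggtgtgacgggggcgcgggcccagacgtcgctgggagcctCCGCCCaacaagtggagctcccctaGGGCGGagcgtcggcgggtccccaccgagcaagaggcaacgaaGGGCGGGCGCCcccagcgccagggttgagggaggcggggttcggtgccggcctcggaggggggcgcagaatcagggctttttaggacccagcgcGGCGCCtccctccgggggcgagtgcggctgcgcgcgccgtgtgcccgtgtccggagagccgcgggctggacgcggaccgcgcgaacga
The promoters of the genes that rose, Kcnj8 and Kcna6, held 9 and 8 CpG dinucleotides and no match to either motif. Those of the genes that fell, Kcnk5 and Kcnc1, held 26 and 41 CpG dinucleotides and 3 GC boxes each, and that of Kcnc1 held GGCGCC at 2 places, 1 of them overlapping a GC box. Over all 32851 promoters of this length the median was 7 CpG dinucleotides, 35.7% held the GC box and 11.9% held GGCGCC. RefSeq promoters were found for 62 members. The GC box stood in 9 of 23 promoters of members that rose over all lines (39.1%) and in 14 of 25 of members that fell (56.0%), and GGCGCC in 4 (17.4%) and 5 (20.0%). Their median CpG counts were 9 and 12, so the gap between the 4 promoters shown is wider than that between the sets. The sequence TATAAA, also sought on both strands, was in none of the 4 promoters shown, in 5 of the 86 promoters of members (5.8%) and in 13.6% of all promoters. The GC box stood in 41 of those 86 (47.7%). A match is a string of letters and was not tested for binding.

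Levels are the deposited normalised values on a log2 scale, and a difference of 1 is a doubling. The transform is not named, and if it is a regularized log, the changes of genes with few reads are understated. The libraries were labelled as at least 25000000 single-end reads of 76 bp, and the reads of each library were not analysed here. The median absolute difference between libraries of 1 group lay between 0.089 and 0.11. The labels were compared with marker genes: Gfap, the astrocyte filament, averaged 9.21 in NSCs and 15.74 in astrocytes, and Aqp4, the astrocyte water channel, 8.60 and 12.96. Most of the NSC list ran against the labels. Sox2, Vim, Prom1 and Msi1 were higher in astrocytes over all lines, by 1.06, 1.21, 1.78 and 0.39, though Msi1 changed by -0.29 in the EYFP line. Nes and Fabp7 changed by -2.15 and -0.76. The oligodendrocyte lineage factor Olig2 was also high, at 14.19 in NSCs and 12.18 in astrocytes, whereas Mog, Sox10, Aif1 and Stmn2 stayed below 1 in both means. Of 5 markers of ependyma and choroid plexus, Foxj1, a factor of ciliated cells, went from 10.05 to 11.50 and Rsph1, a cilium gene, from 3.70 to 5.92, both called in every line by limma. Folr1 passed the filter in astrocytes only, and Ttr and Kl stayed below 0 in both means. The summed level of that list ran from 9.45 to 10.50 in NSCs and from 11.02 to 12.32 in astrocytes, and its part in the channel changes was not tested.

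The first comparison asked which channels changed when NSCs became astrocytes. A gene was tested where at least 3 of the compared libraries reached a linear value of 10, and 57 members met this over all 18 libraries. With limma and line as a covariate, 26 members were higher in astrocytes, 20 were lower and 11 did not pass an adjusted p of 0.05. Over all 15448 genes tested, 81.9% were called, 42.1% higher and 39.8% lower, so the share of members called, 46 of 57 or 80.7%, was close to that of all genes. Changes are given on the log2 scale with ± SE. By at least 1 on that scale, 18 members were higher (14.6% of all genes tested) and 12 lower (10.1%). The median absolute change was 1.20 over the members and 0.50 over all genes tested. Of the 57, 44 passed the filter in both fates, 6 only in NSCs, 6 only in astrocytes and 1 only over both fates together. Members that passed in 1 fate only were let in by their level there, so that the filter itself favoured a difference. In 29 of the 57 the 9 NSC and the 9 astrocyte libraries did not overlap, as in 46.1% of all genes tested. Among the 44, 20 were higher, 14 lower and 10 not called, and the matching share over all genes that passed in both fates was not computed. In bulk samples, a change in the share of cells that use a channel and a change in RNA per cell cannot be told apart.

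Of the voltage-gated pore subunits 14 of 25 tested were higher and 6 lower, and of the auxiliary genes 2 of 8 were higher and 5 lower, where 42.1% of all genes were higher and 39.8% lower. Inward rectifiers and two-pore subunits each had 3 higher and 3 lower of 8, and the calcium- and sodium-activated subunits 4 higher and 3 lower of 8. Whether these splits differ between roles was not tested. In the Kcna subfamily, the delayed rectifier and A-type subunits of the Shaker kind, 5 members were tested and called higher. However, Kcna1, Kcna4 and Kcna5 passed the filter in astrocytes only, which favoured a rise. In the hippocampal line 3 of the 5 were called higher, where 39.2% of all genes were. In the Kcnn subfamily of small- and intermediate-conductance calcium-activated channels 3 were higher and 1 lower.

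The remaining 28 members did not pass the filter, and their highest group mean was 3.10. Among them were Kcna3, Kcna7, Kcna10, Kcnb2, Kcng2, Kcng3, Kcng4, Kcnh1, Kcnh8, Kcnq1, Kcns1, Kcns2, Kcns3 and Kcnv2 among the voltage-gated subunits, Kcnj5, Kcnj6, Kcnj13 and Kcnj15 among the inward rectifiers, Kcnk6 and Kcnk12 among the two-pore subunits, and Kcne2, Kcne4, Kcnip1, Kcnmb1, Kcnmb2, Kcnmb3 and Kcnrg among the auxiliary genes.

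Levels can be compared between genes only per length, so each value was divided by the kilobases of merged exon. On this log2 scale Kcnip3 stood highest over all libraries at 9.27, followed by Kcnj16 at 8.75, Kcnd3 at 8.64, Kcnc1 at 8.22, Kcnd2 at 8.03 and Kcnmb4 at 7.78, with Kcna2 further down at 6.64. Kcnip3 binds the A-type channels that Kcnd2 and Kcnd3 form and is also known as the repressor DREAM, so 3 of the 5 highest members are known partners in 1 kind of channel. The order shifted between fates: Kcnc1 went from place 2 in NSCs at 9.26 ± 0.32 (SD, n = 9) to place 10 in astrocytes at 7.18 ± 0.28, while Kcna6 moved from place 22 at 4.37 ± 0.30 to place 5 at 7.77 ± 0.17. Neighbours such as Kcnj16 and Kcnd3 in NSCs, at 8.94 ± 0.24 and 8.99 ± 0.24, did not differ beyond their spread. Kcnj16 forms heteromers with Kcnj10, the main astrocytic inward rectifier and no member here, whose level changed by -0.14 over all lines (limma adjusted p = 0.10). That average hides a rise of 0.21 in the tdTomato line and changes of -0.47 with EYFP and -0.16 for hippocampal cells, each past the threshold by limma.

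**Figure D1:**
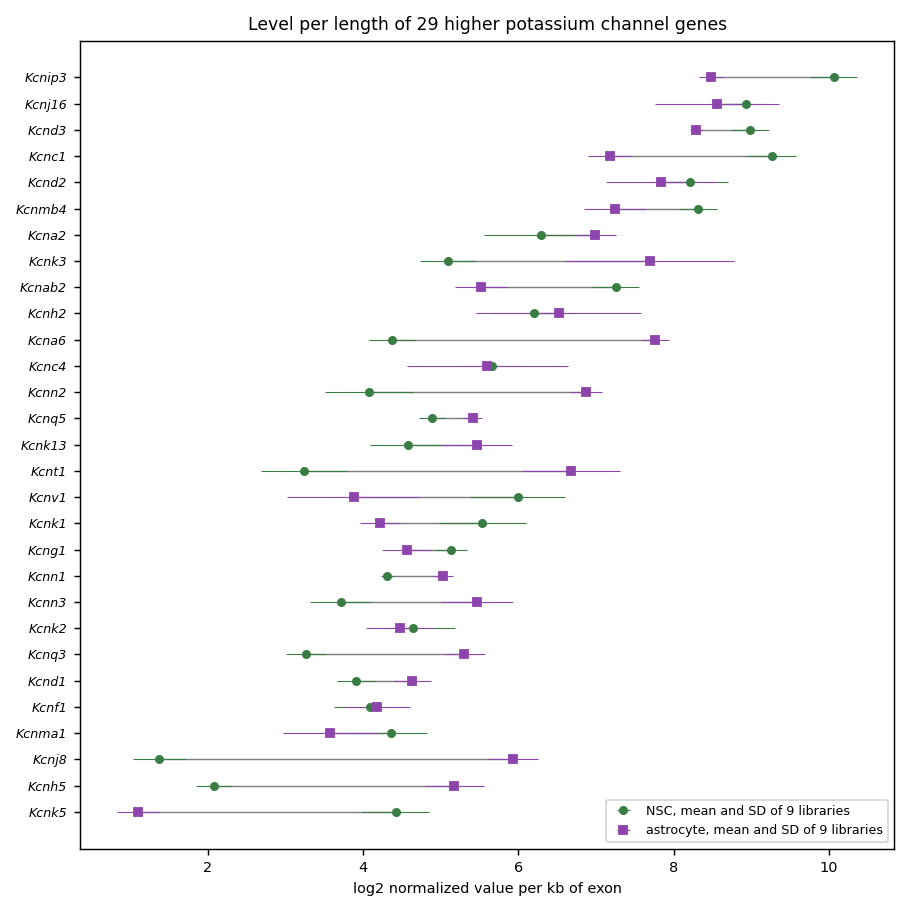
Level per length of 29 members that reached a linear value of 100 in at least 1 group mean, as log2 normalised value per kilobase of exon, with circles for NSCs, squares for astrocytes and bars for the SD over 9 libraries. Kcnip3, Kcnj16 and Kcnd3 lie at the top, and Kcnj8, Kcnh5 and Kcnk5 show wide gaps between fates near the bottom.

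Among the inward rectifiers, the largest rise of any member was that of Kcnj8 (ENSMUSG00000030247), which encodes a pore subunit of ATP-sensitive potassium channels. The tdTomato line gave 2.56, 3.53 and 3.01 in NSCs and 7.32, 6.68 and 7.07 in astrocytes. The EYFP line gave 2.51, 2.49 and 2.53, then 7.39, 7.21 and 7.15. The hippocampal line gave 2.81, 2.57 and 2.55, then 7.72, 7.72 and 7.24. The fates did not overlap in any line, and the change was 4.55 ± 0.16 (SE, limma adjusted p = 1.42e-14), though Kcnj8 passed the filter in astrocytes only, which favoured a rise. Abcc9, the sulfonylurea receptor that pairs with Kcnj8, averaged 1.28 in NSCs and 2.98 in astrocytes. Kcnj8 and Abcc9 are also pericyte markers, and of the 5 genes of the pericyte and smooth muscle list Cspg4 fell by 1.49 and Acta2 by 2.61. Rgs5, at 2.37 in NSCs and 5.94 in astrocytes, and Abcc9 passed the filter in astrocytes only, which favoured a rise. Pdgfrb, which defines pericytes, was at -0.51 and -0.75. The summed level of that list ran from 11.32 to 12.13 in NSCs and from 10.15 to 10.80 in astrocytes, most of it from Cspg4, which averaged 11.84 and 10.34. The part of these markers in the change of Kcnj8 was not tested.

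Kcnj16, named above for its high level, moved in opposite directions in different lines. Its values in the tdTomato line were 10.68, 10.55 and 10.58 in NSCs against 9.48, 9.49 and 9.82 in astrocytes. In the EYFP line they were 11.08, 11.11 and 10.98 against 10.52, 10.42 and 10.88, and in the hippocampal line 11.07, 11.09 and 11.09 against 11.37, 11.33 and 11.51. Thus every astrocyte library was below its NSC libraries in both traced lines and above them in the hippocampal line. The pooled change of -0.38 ± 0.14 (limma adjusted p = 0.02) averages over these directions. Kcnj2, a classical strong inward rectifier, fell by 1.23 on the log2 scale (SE 0.12), from between 5.38 and 5.98 in NSCs to between 4.18 and 4.90 in astrocytes. Kcnj9, a G-protein-gated subunit, was higher by 2.13 ± 0.17 but passed the filter in astrocytes only, and Kcnj12 passed in NSCs only.

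Among the two-pore subunits, Kcnk3 and Kcnk5 moved in opposite directions. Kcnk5 (ENSMUSG00000023243) encodes an alkaline-activated leak channel. It stood at 6.78, 6.78 and 6.60 in tdTomato NSCs, at 5.74, 5.65 and 5.88 in EYFP NSCs and at 6.16, 6.00 and 6.11 in hippocampal NSCs. The astrocyte libraries gave 2.38, 3.02 and 2.86, then 2.72, 2.62 and 2.88, then 3.10, 2.93 and 3.31 in the same order of lines. No astrocyte library came near an NSC library, and the change was -3.32 ± 0.14 (limma adjusted p = 3.88e-13), the largest fall among the members named by the rule, in a gene that passed the filter in NSCs only. Kcnk3 (ENSMUSG00000049265) encodes the acid-sensitive leak channel that carries a background current in many neurons and in glomus cells. It ran from 6.58 to 7.61 with a median of 7.08 in NSCs and from 8.08 to 10.65 with a median of 10.16 in astrocytes, a change of 2.60 ± 0.20 (limma adjusted p = 1.15e-09). Within astrocytes the hippocampal libraries, at 8.45, 8.24 and 8.08, lay below all 6 traced libraries, which reached 10.06 or more. Kcnk1, a weakly conducting subunit expressed in astrocytes in vivo, fell by 1.32 (SE 0.11), from a median of 6.47 to 5.54. Kcnk2, the mechanosensitive subunit that is likewise known from astrocytes, averaged 6.95 and 6.78 and did not pass the test (limma adjusted p = 0.19), with 12.2% of its exon length under an antisense gene.

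Among the calcium- and sodium-activated subunits, Kcnt1 (ENSMUSG00000058740), which forms sodium-activated channels, had the second largest rise of all named members. Its NSC values were 7.06, 7.22 and 7.36 in the tdTomato line, 6.27, 5.88 and 6.16 in the EYFP line and 6.19, 6.15 and 6.11 in the hippocampal line. Its astrocyte values were 10.05, 10.12 and 10.18, then 10.49, 10.51 and 10.56, then 8.85, 9.28 and 9.26. All lines rose, and the change was 3.43 ± 0.18 (limma adjusted p = 5.51e-12). The small-conductance subunits Kcnn2, Kcnn3 and Kcnn1, which open on calcium alone, rose by 2.79 ± 0.15, 1.76 ± 0.13 and 0.72 ± 0.06, and for none of these did the fates overlap. Kcnn2 ran from 6.13 to 7.77 in NSCs and from 9.43 to 10.06 in astrocytes. Kcnn4, the intermediate-conductance channel, was lower by 1.87 on the log2 scale and passed the filter in NSCs only. The large-conductance pore Kcnma1 fell by 0.78 (SE 0.14) over all lines, with -0.11 in the tdTomato line (limma adjusted p = 0.31), -0.86 in the EYFP line and -1.38 in the hippocampal line.

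Among the voltage-gated subunits, Kcna6 (ENSMUSG00000038077), a delayed rectifier, rose by much the same amount in each line. In NSCs it stood at 7.17, 6.94 and 6.41 in the tdTomato line, 7.16, 6.88 and 6.52 in the EYFP line and 7.28, 7.09 and 7.06 in the hippocampal line. In astrocytes it stood at 10.51, 10.43 and 10.38, then 10.37, 10.18 and 10.04, then 10.60, 10.31 and 10.23. The changes by line were 3.60, 3.34 and 3.24, and that over all lines 3.39 ± 0.10 (limma adjusted p = 3e-15). The annotated antisense gene Gm26673 overlaps 39.6% of the Kcna6 exon length, and since no strand setting of the counting is given in the sources used here, reads of the pair may be shared. Gm26673 itself stood at 0.72 in hippocampal NSCs, 5.50 in hippocampal astrocytes and under 2 in the group means of both traced lines.

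Kcnh5, an ether-a-go-go channel, rose by 3.10 ± 0.14 from between 3.72 and 4.47 to between 6.63 and 7.62. Kcnq3, a subunit of the M current, rose by 2.04 ± 0.12. Kcnc1 (ENSMUSG00000058975), the main subunit of high-threshold rapid currents, stood at 12.60, 12.65 and 12.48 in tdTomato NSCs, 12.08, 12.01 and 12.32 in EYFP NSCs and 12.98, 12.76 and 12.67 in hippocampal NSCs. Astrocytes gave 10.54, 10.47 and 10.44, then 10.12, 9.99 and 10.14, then 10.72, 10.68 and 10.72. The fall was nearly equal in all lines, at -2.09, -2.05 and -2.09, and -2.08 ± 0.05 over all (limma adjusted p = 3.29e-17).

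Kcnv1, a silent subunit that modifies other voltage-gated subunits, fell by 2.11 (SE 0.12), from between 7.63 and 9.13 to between 4.96 and 7.19. The A-type pore Kcnd3 fell by 0.69 (SE 0.07) without overlap of the fates, whereas its relative Kcnd1 rose by 0.73 ± 0.07. Kcnd2 fell by 0.36 (SE 0.10), but its fates overlapped, and in the tdTomato line the change was 0.07 (limma adjusted p = 0.47). Kcna2, an axonal delayed rectifier, rose by 0.70 ± 0.14 over all lines, with 1.36 and 0.72 in the traced lines and 0.03 in the hippocampal line (limma adjusted p = 0.68), where its NSC libraries were already at 10.76, 10.85 and 10.83.

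Among the auxiliary genes, Kcnab2, a cytoplasmic beta subunit of Shaker-type channels, fell by 1.73 (SE 0.08), from a median of 9.60 to 8.11. Kcnip3 fell by 1.58 (SE 0.09), from a median of 11.89 to 10.33. Kcnmb4, the neuronal beta subunit of large-conductance channels, fell by 1.07 (SE 0.05), and 20.8% of its exon length is shared with annotated antisense genes, of which Kcnmb4os2 also fell, by 1.31. For these 3 genes no astrocyte library reached any NSC library. Kcnab1, a beta subunit like Kcnab2, rose instead, by 1.53 ± 0.09.

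**Figure D2:**
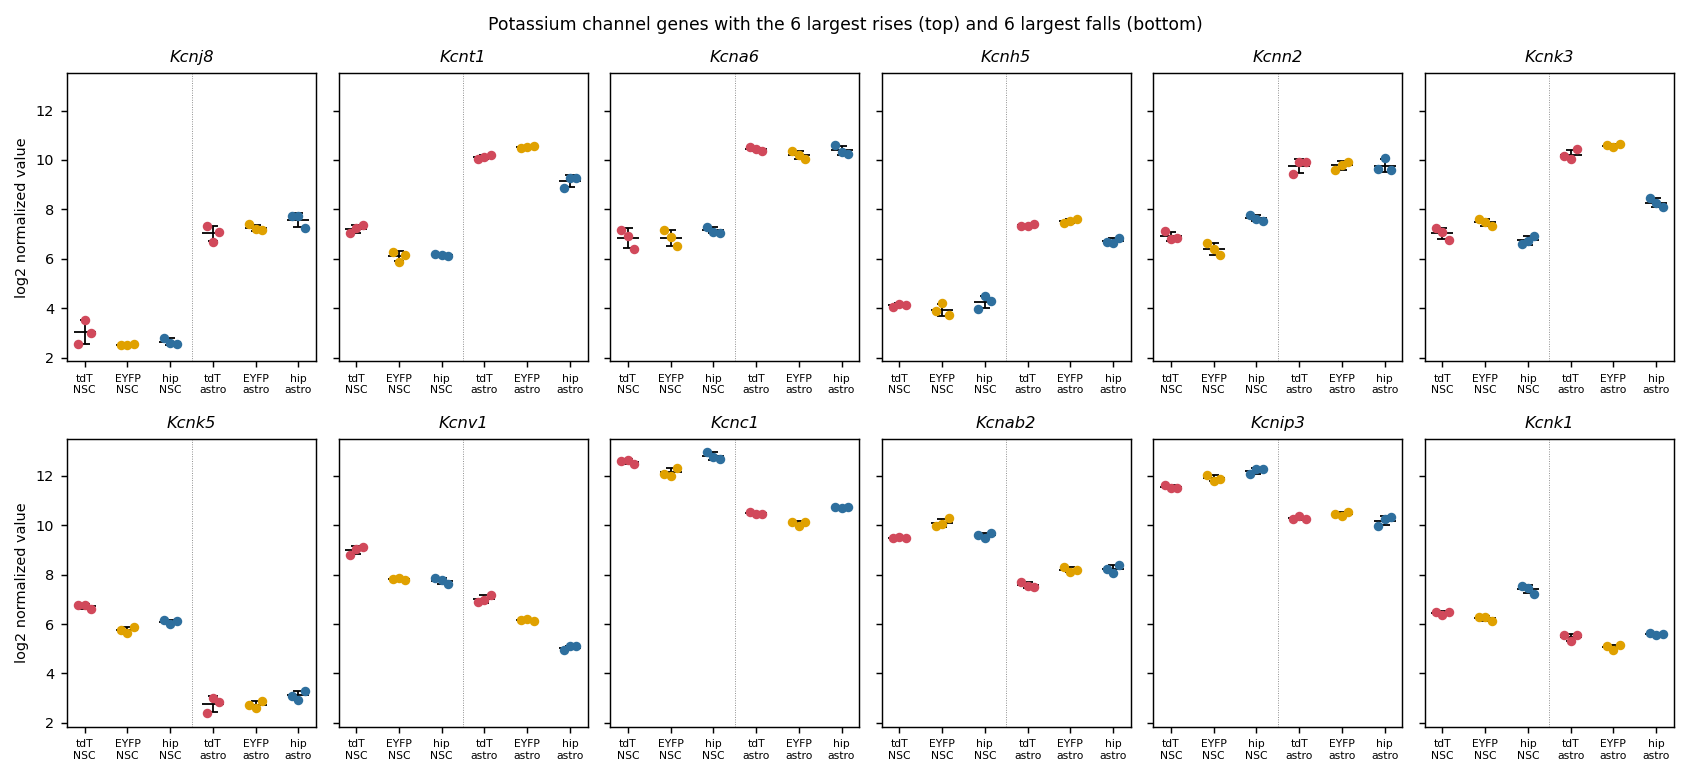
Deposited log2 normalised values of the members with the 6 largest rises (top row) and the 6 largest falls (bottom row), 1 point per library, with the mean and SD of the 3 libraries of each line and fate. In each panel the astrocyte libraries on the right lie apart from the NSC libraries on the left, and within astrocytes the hippocampal points lie below all others for Kcnh5, Kcnk3, Kcnt1 and Kcnv1 and above them for Kcnc1 and Kcnk1.

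Whether the changes were shared was asked line by line. In the tdTomato line 25 of 47 tested members were higher and 14 lower, where 79.3% of all genes tested were called, 39.9% higher and 39.5% lower. The EYFP line had 26 of 49 higher and 18 lower, where 74.9% of all genes were called, 37.5% higher and 37.4% lower. The hippocampal line had 25 of 54 higher and 22 lower, where 77.3% of all genes were called, 39.2% higher and 38.2% lower. In all 3 lines 46 members were tested, of which 17 were higher in each line (28.0% of all genes tested in all lines) and 11 lower in each (28.9%). Another 6 were called in every line but not in the same direction, a count whose share over all genes was not computed. In 5 of them both traced lines went one way and the hippocampal line the other, as in 2.15% of all genes tested in all lines. Across members, the changes had a Pearson correlation of 0.94 between the 2 traced lines, 0.76 between the tdTomato and hippocampal lines and 0.84 between the EYFP and hippocampal lines. The lines share no library, and the genes are not independent replicates.

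**Figure D3:**
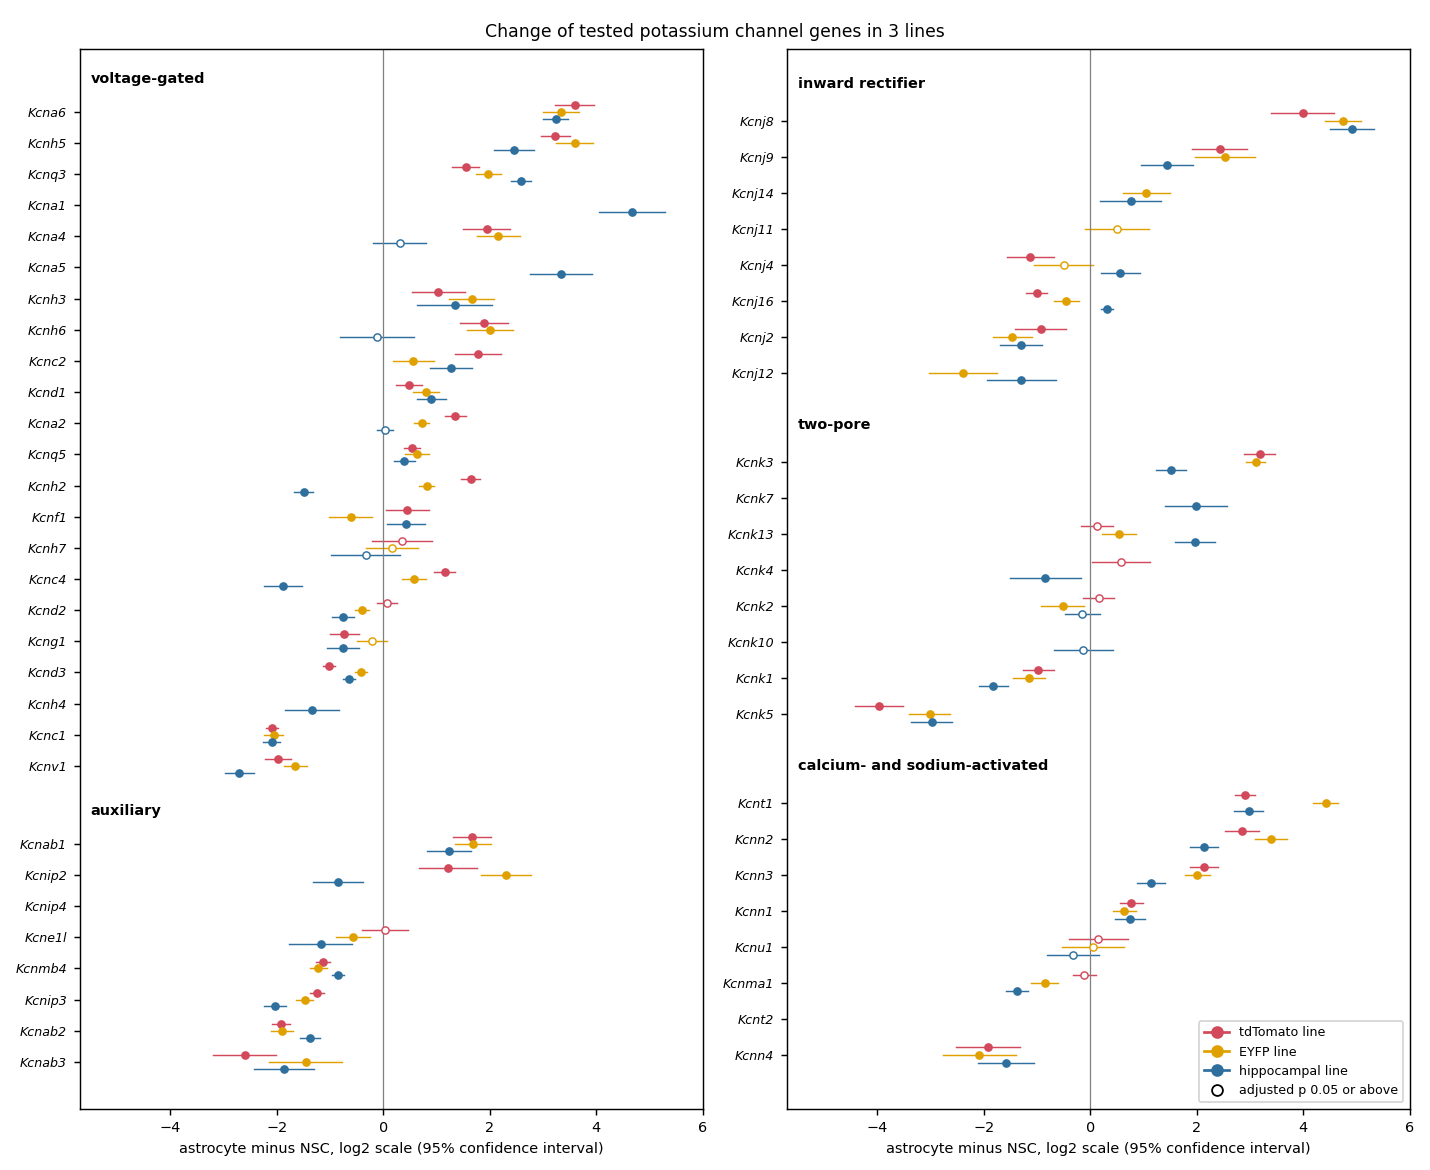
Change from NSC to astrocyte of 54 tested members in the tdTomato (red), EYFP (amber) and hippocampal (blue) lines, on the log2 scale with 95% confidence intervals, by role. Open circles did not pass an adjusted p of 0.05, and a line without a marker was not tested for that gene because its libraries did not meet the filter. For Kcnh2, Kcnc4 and Kcnip2 the blue points lie left of 0 and the others right of it.

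The difference between the changes was then tested itself, as the mean change of both traced lines minus that of the hippocampal line. It passed for 30 of 57 members, 20 with a higher and 10 with a lower change in the traced lines, where 46.2% of all genes passed (20.3% higher and 25.9% lower). With each library centred on its median, 32 members passed, 23 higher and 9 lower, and the share of all called genes that were higher went from 43.9% to 56.2%, so that the balance over all genes depends on the scaling. Of the genes called in all lines, 5 moved one way in both traced lines and the other way in the hippocampal line (2.15% of all genes tested in all lines), among them Kcnc4, Kcnh2, Kcnip2 and Kcnj16. NSC markers differed by origin too. Nes, the stem cell filament nestin, fell by 3.18 and 3.05 in the traced lines and changed by -0.22 in the hippocampal line (limma adjusted p = 0.058), and Vim, a filament of immature glia, rose by 0.66 and 0.74 against 2.24. Of the 6 genes of the NSC list, 4 had a lower and 1 a higher change in the traced lines. The summed level of that list ran from 16.39 to 16.64 in traced and from 17.58 to 17.89 in hippocampal astrocytes, against 16.34 to 16.49 over all NSCs. In astrocytes most of it came from Vim, which averaged 15.97 and 16.02 in the traced lines and 17.42 in the hippocampal line. Of the 7 astrocyte markers, 3 had a lower and 2 a higher change in the traced lines. The part of these markers in the channel differences was not tested.

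Kcnh2 (ENSMUSG00000038319; chr5:24319589-24351604, minus strand) encodes the delayed rectifier that ends the cardiac action potential. Its tdTomato values were 7.82, 7.66 and 7.78 in NSCs and 9.50, 9.28 and 9.40 in astrocytes. In the EYFP line they were 8.87, 8.70 and 8.79, then 9.61, 9.61 and 9.61, and in the hippocampal line 8.92, 8.82 and 8.92, then 7.39, 7.30 and 7.49. Here the NSCs of the EYFP and hippocampal lines lay close together, and their astrocytes moved apart. The changes were 1.64, 0.82 and -1.49, and the difference by origin was 2.73 ± 0.09 (limma adjusted p = 2.99e-13).

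Kcnc4 (ENSMUSG00000027895; chr3:107438303-107459552, minus strand), a rapidly inactivating relative of Kcnc1, gave 7.27, 7.15 and 7.11 in tdTomato NSCs and 8.36, 8.42 and 8.21 in their astrocytes. The EYFP line gave 7.34, 7.33 and 7.51, then 7.94, 8.10 and 7.87. The hippocampal line gave 8.04, 7.83 and 8.19, then 6.47, 5.97 and 5.95. The hippocampal line had the highest NSC and the lowest astrocyte values, without overlap with the traced lines in either fate. The difference between the changes was 2.75 ± 0.15 (limma adjusted p = 3.79e-10).

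Kcnk3 rose in every line, but by 3.18 and 3.10 in the traced lines and by 1.52 in the hippocampal line, a difference of 1.63 ± 0.16 (limma adjusted p = 1.82e-07). Gm9899, which overlaps 5.8% of the Kcnk3 exon length on the other strand, averaged 2.42 in NSCs and 5.33 in astrocytes, but passed the filter in astrocytes only, which favoured a rise. Kcnk13, a halothane-inhibited two-pore subunit, went the other way, with changes of 0.12 (limma adjusted p = 0.42), 0.54 and 1.97 and a difference of -1.64 ± 0.19 (limma adjusted p = 2.28e-06). Its hippocampal astrocytes stood at 7.92, 7.41 and 7.66, above the traced astrocytes at 6.63 to 7.13.

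Further genes with such differences, named here after their values were seen because they stayed under the level set for naming, included members of the Kcna cluster on chromosome 6. Kcna1, the axonal low-threshold delayed rectifier, stood at 5.79, 5.97 and 5.31 in hippocampal astrocytes and between 0.60 and 1.45 in the 15 other libraries. Kcna5 stood at 5.78, 5.31 and 5.35 in hippocampal astrocytes and between 1.44 and 3.40 elsewhere. Both passed the filter only through hippocampal astrocytes, so that the filter itself favoured a difference, and the tests of the difference gave -4.60 ± 0.35 and -2.81 ± 0.35. Kcna5, Kcna1 and Kcna6 lie next to each other on chromosome 6, with gaps of 105.0 and 61.9 kb, and the third of them, Kcna6, rose in all lines with a difference of 0.23 ± 0.21 by origin (limma adjusted p = 0.38). Kcnip2, which binds Kcnd channels like Kcnip3, changed by 1.22 and 2.31 in the traced lines and by -0.85 in the hippocampal line. Kcna4, an A-type relative of Kcna1, and Kcnh6, a relative of Kcnh2, rose by 1.94 and 2.17 and by 1.89 and 2.01 in the traced lines, while the hippocampal changes were 0.31 (limma adjusted p = 0.22) and -0.11 (limma adjusted p = 0.74).

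**Figure D4:**
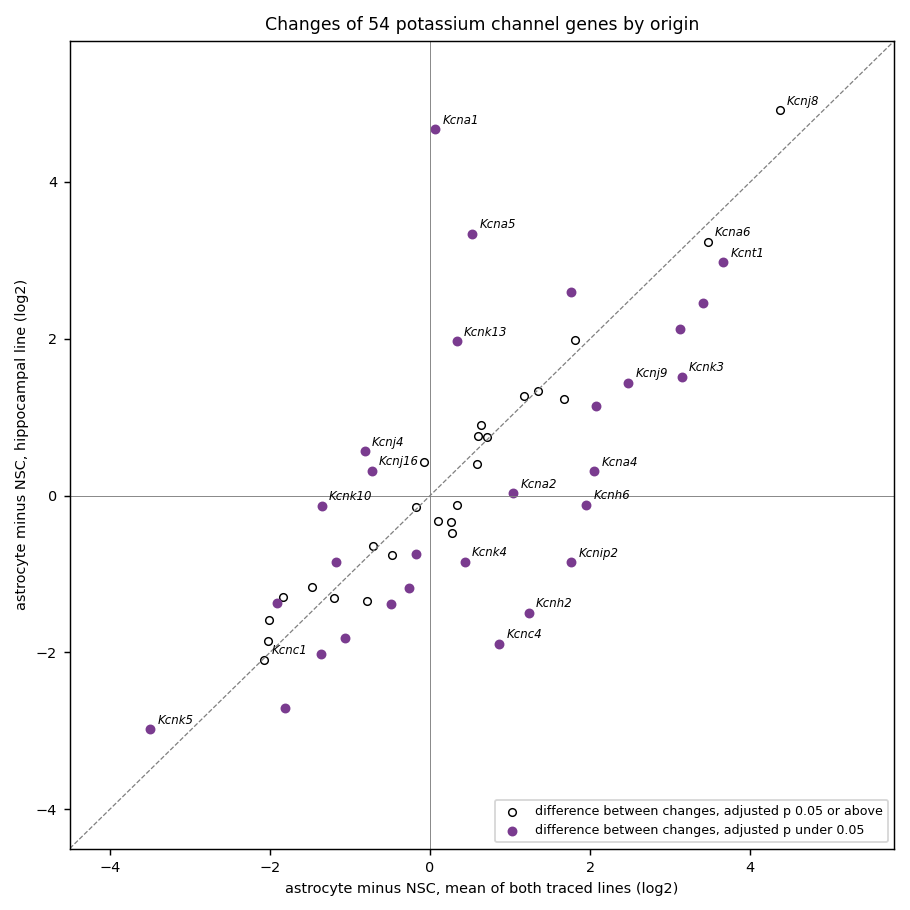
Change from NSC to astrocyte of 54 tested members, as the mean of both traced lines (horizontal) against the hippocampal line (vertical), both on the log2 scale, with equal changes on the dashed diagonal. Filled points are the 29 shown members whose difference between the changes passed an adjusted p of 0.05, with Kcnc4, Kcnh2 and Kcnip2 at the lower right and Kcna1 and Kcna5 at the upper middle.

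The traced lines, which share the spinal cord origin, were compared in the same way. The change in the EYFP line minus that in the tdTomato line passed for 13 of 57 members, 5 higher and 8 lower, where 13.3% of all genes passed, 6.98% higher and 6.36% lower. Of all called genes 52.3% were higher, but 44.6% after median centring. Kcnt1 rose by 4.42 in the EYFP and by 2.91 in the tdTomato line, a difference of 1.51 ± 0.16 (limma adjusted p = 2.24e-05). Kcnf1, a silent subunit, changed by 0.45 in the tdTomato line and by -0.61 in the EYFP line, and its difference was -1.06 ± 0.27 (limma adjusted p = 0.02), which became -0.90 (limma adjusted p = 0.051) without the third tdTomato NSC library. Voltage-gated subunits were 8 of the 13 and 25 of the 57 tested, shares whose difference was not tested.

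Levels by origin were last compared within each fate, with the 6 traced libraries against the 3 hippocampal ones. In NSCs 11 of 50 tested members differed, 2 higher and 9 lower in the traced lines, where 19.4% of all genes differed (10.6% higher and 8.81% lower). Of all called genes 54.6% were higher, but 44.6% after median centring. Without the third hippocampal NSC library, 7 members and 11.5% of all genes passed. Where the spread was taken within each of the 6 groups, so that the gap between both traced lines did not count, 21 members and 33.5% of all genes passed. Kcna2 was lower in traced NSCs by 1.42 on the log2 scale (limma adjusted p = 1.95e-05), Kcnk1 by 1.09 and Kcnn2 by 0.99. The 2 higher members were Kcnd2, by 0.82 ± 0.17, and Kcnk13, by 0.80 ± 0.19.

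In astrocytes 31 of 50 members differed by origin, 18 higher and 13 lower in the traced lines, where 52.0% of all genes differed, 24.1% higher and 27.9% lower. Of all called genes 46.4% were higher, and 53.0% after median centring. Kcnk3, Kcnh2 and Kcnc4 were higher in traced astrocytes, by 2.14 ± 0.13, 2.11 ± 0.08 and 2.02 ± 0.15. Kcnd2 was higher by 1.40 ± 0.08 and so kept the direction it had in NSCs. Kcnj16, at 9.60 and 10.61 in the traced means, was lower than the hippocampal mean of 11.40 (limma adjusted p = 0.00358), and Kcnmb4 was lower by 0.77 ± 0.07. Kcnc4 was lower in traced NSCs and higher in traced astrocytes.

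Other genes of potassium handling were taken as a list of 32 pumps, cotransporters, cation channels and channel partners outside the family. Of these, 21 were tested over all lines, 13 higher and 7 lower, against 81.9% called among all genes. Of the beta subunits of the sodium-potassium pump, which drives potassium into the cell, Atp1b1 rose by 3.38 ± 0.10 and Atp1b2 by 1.74 ± 0.11. The pump regulator Fxyd1 averaged 2.68 in NSCs and 7.48 in astrocytes, but passed the filter in astrocytes only, which favoured a rise. The cotransporter Slc12a2 fell by 0.62 (SE 0.09). Dpp6, a partner of the Kcnd channels, fell by 1.69 (SE 0.09). Lrrc55, an auxiliary protein of large-conductance channels, likewise passed in astrocytes only, and not in the hippocampal line, with means of 1.86 in NSCs and 4.74 in astrocytes.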

How the data were processed

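The authors trimmed reads with Trimmomatic 0.36, aligned them with STAR 2.5.2 and counted them per gene with RSEM 1.3.0 on Ensembl annotation of GRCm38, and normalised them with DESeq2 1.18.1, per the labels. The deposited values are on a log2 scale with 29.4% below 0, and the transform is not named in the sources used here. The library kit is given as TruSeq Stranded mRNA in the labels and as KAPA mRNA HyperPrep in the methods. Symbols, exon lengths and overlaps came from GENCODE M21 by gene identifier. Members and gene lists were chosen with earlier results of these data known. limma 3.58.1 in R 4.3.3 was fitted across all genes with a variance trend and no pseudocount, and p-values were adjusted by Benjamini-Hochberg over all genes tested. Genes needed a linear value of 10 in at least 3 compared libraries. The change over all lines had line as a covariate, changes within a line used its 6 libraries, and differences between changes came from 6 group means. Members were named if they passed the filter, reached a group mean of 100, and had the largest changes overall or by role, the largest differences by line or origin, or the highest level per length, and a few were set by function. Kcna1, Kcna4, Kcna5, Kcnab1, Kcnd1, Kcnh6, Kcnip2, Kcnj9, Kcnj12, Kcnn1, Kcnn4 and Kcnq3 were added after their values were seen. The fits were tested on simulated data. Replicate numbers were not treated as pairs. Alternatives covered pseudocounts, filters, scalings, the variance trend, a replicate block, pooled spread and leaving out each library. Some genes are counted but not reported here by name. Clec9a, which encodes DNGR-1, was not analysed here.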

Additional observations from a re-analysis of the deposited data

Results flagged for a closer look

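In 30 of the 57 tested potassium channel genes, where 46.2% of all genes passed, the change from NSC to astrocyte differed between the traced lines and the hippocampal line by the test of that difference itself. Among those named, the change was larger in the traced lines by 2.75 on the log2 scale for Kcnc4, by 2.73 for Kcnh2 and by 1.63 for Kcnk3, and the difference was -1.64 for Kcnk13 and -1.05 for Kcnj16. Kcnk3 rose in every line and differed in size, whereas Kcnc4, Kcnh2 and Kcnj16 moved in opposite directions. Between the EYFP and tdTomato lines the changes differed in 13 of 57 members, where 13.3% of all genes passed, and without the third tdTomato NSC library in 9 members and 8.54% of all genes. Among the 13 were Kcnt1 with a difference of 1.51 and Kcnf1 with -1.06. With 1 culture line for each, origin, reporter and other features of a line cannot be told apart.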

How the results depend on the processing

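No gene named by the rule changed direction under the alternatives run, and each kept its side of the threshold except Kcnk2, whose change of -0.28 passed after quantile normalization, and Kcnf1, named in the report. The balance of calls was not stable. In the hippocampal line, with 25 members higher and 22 lower, it became 22 and 25 after quantile normalization, 19 or 20 higher and 21 or 22 lower without any 1 astrocyte library, and 23 or 25 higher and 15 lower without any 1 NSC library, where 45 to 48 members were tested in place of 54, since a gene above the filter in 1 fate only then no longer reached 3 libraries. For the differences by line or origin the balance over all genes turned under median centring, as given in the report. A filter at a linear value of 100 tested fewer genes by construction and called 26 members over all lines, 25 in the tdTomato line, 26 in the EYFP line, 28 in the hippocampal line, 19 for the difference by origin and 20 for astrocyte levels by origin, with 84.5%, 82.6%, 78.0%, 81.4%, 51.3% and 56.4% of all genes called in the same order. With the spread taken from 6 group means over all libraries, 21 members differed by origin in NSCs in place of 11. Leaving out each library in turn gave 44 to 46 members called over all lines, 35 to 38 in the tdTomato line, 39 to 41 in the EYFP line, 38 to 41 in the hippocampal line, 29 to 31 for the difference by origin, 9 to 15 for the difference between the traced lines, 7 to 13 in NSCs and 25 to 32 in astrocytes. The shares of all genes called were then 81.0% to 81.7%, 74.4% to 78.4%, 69.3% to 72.1%, 73.1% to 76.3%, 41.9% to 47.5%, 8.54% to 16.2%, 11.5% to 19.9% and 42.9% to 52.2%. Where an arm was left with 2 libraries, the fit pooled the spread. The lowest NSC count, 7, came without the third hippocampal NSC library.

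In their deviations from the group means, same-numbered libraries correlated between -0.076 and 0.034 across the fates of a line, and between 0.012 and 0.313 (mean 0.106) across lines within a fate, where 9 of 18 pairs exceeded 0.1. Within a fate 17 of 18 libraries correlated best with their own number in the other lines, a hint from the data and not from the design. Since not every pair exceeded 0.1 and no label ties a number to a passage or day, the numbers were not used as pairs. With the replicate number as a block, 46 members were called over all lines, 40, 43 and 47 in the tdTomato, EYFP and hippocampal lines, 30 and 13 for the differences between changes, and 9 and 31 for levels by origin in NSCs and astrocytes, where 81.3%, 77.5%, 74.0%, 76.6%, 46.9%, 14.5%, 15.6% and 52.1% of all genes were called. The depth of each library is unknown from these values, and the 28 members below the filter were not tested.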
